A study of Mus musculus with 2 samples.

Results

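Heat shock proteins and their DnaJ co-chaperones were described in tuft cells sorted from mouse small intestine. The genes were chosen by symbol, as those of the families Hspa, Hspb, Hspd, Hspe and Hsph, Hsp90, Dnaja, Dnajb and Dnajc, the heat shock factors Hsf and the co-chaperones Bag, followed by a number. These symbols took in 78 of the 17134 genes in the table. Tuft cells sense luminal chemicals and are few among the cells lining the gut. They were sorted for 2 surface proteins, EpCAM, found on epithelium, and Siglec-F, a sialic acid-binding lectin of intestinal tuft cells. The mice were naive, meaning untreated. One library came from mice with the genotype Spib+Villin-cre, called WT, and 1 from mice with the genotype Spibfl/flVillin-cre, called Spib_KO. Both genotypes thus carried Villin-cre, which expresses Cre recombinase in the whole intestinal epithelium and not in tuft cells alone. The labels do not give the number or age of the mice behind each library or which part of Spib was floxed. The product of Spib, Spi-B, is an ETS transcription factor, and the comparison asks which transcripts of tuft cells differ without it.

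Chaperones bind unfolded protein and help it to fold. HSP70 proteins do this in cycles of ATP hydrolysis that DnaJ proteins start through their J domain and that nucleotide exchange factors, among them the HSP110 and BAG proteins, complete. HSP90 takes over client proteins such as kinases and steroid receptors, and the HSP60 and HSP10 chaperonin folds proteins inside mitochondria. Heat and other proteotoxic stress activate the transcription factor HSF1, which binds heat shock elements in promoters. Load in the endoplasmic reticulum (ER) acts instead through the unfolded protein response, part of which reads ER stress elements. Secretory cells of the gut hold much ER and its chaperones.

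Reads assigned to genes numbered 17925448 in WT and 17228684 in Spib_KO. Spib fell from 348 to 2.80 normalised read counts (CPM, read counts scaled to a common library size), a log2 ratio of Spib_KO over WT of -6.95 (95% counting interval -7.40 to -6.55). The genes of the sort were close, at 1721 and 1653 CPM for Epcam and 953 and 1048 CPM for Siglecf. All 15 tuft cell markers of the list were measured and 0 passed the size rule given below, with a median log2 ratio of 0.02. By that rule 2.33% of all measured genes were higher and 2.18% lower. Markers of other cells were also present and differed. The 7 Paneth cell markers summed to 2298 CPM in WT and 900.2 CPM in Spib_KO, and the 6 goblet cell markers to 2105 and 1321 CPM. Enteroendocrine markers summed to 136 and 41.6 CPM, and T cell markers to 46.8 and 4.72 CPM. Enterocyte markers summed to 12718 and 15068 CPM, but 4 of the 7 had log2 ratios below 0 (median -0.35), and the higher sum came from Fabp1, at 6968 and 10611 CPM. With 1 library per genotype there was no replicate check and no test, and each value describes these 2 libraries.

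Promoter stretches of some members are shown first, because HSF1 and the ER stress factors act through short motifs in them. Hspa1a, Hspa1b, Dnaja4 and Hsph1 are shown as genes whose values stand out. The values of Hspd1, Hspa5, Hsp90b1 and Dnajc3 do not, and these genes are shown as holders of the other motifs searched. Sequences are RefSeq windows of the GRCm38.p6 build, written 5′ to 3′ along the gene, and 61 of the 78 genes had such a window. Hspa13, Hsp90aa1 and Hsp90ab1 are among the 17 without one. Positions count from the transcription start site as 0, and the letters shown all lie before it. In the first set, capitals mark a match to a heat shock element of 2 units, GAANNTTC or TTCNNGAA, both of which read the same on either strand. Hspa1a (chr17:34972157-34972406 on the minus strand) and Hspa1b (chr17:34959239-34959488 on the minus strand) differed at 3 of the 250 bases shown, and each held 1 match at positions -104 to -97. The stretch of Dnaja4 (chr9:54699439-54699538 on the plus strand) held matches at -90 to -83 and -52 to -45. It lies inside the gene, which begins at 54698848, and so precedes an internal start site. No match was found in the window of an earlier start site of Dnaja4. The stretch of Hsph1 (chr5:149636337-149636456 on the minus strand) held 1 match at -33 to -26. It too lies inside its gene, which reaches 149636498, and precedes an internal start site.
Hspa1a: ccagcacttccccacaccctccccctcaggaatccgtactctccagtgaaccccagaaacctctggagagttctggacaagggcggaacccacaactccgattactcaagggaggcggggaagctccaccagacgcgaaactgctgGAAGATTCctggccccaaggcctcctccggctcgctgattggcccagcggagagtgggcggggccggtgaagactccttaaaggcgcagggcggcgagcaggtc
Hspa1b: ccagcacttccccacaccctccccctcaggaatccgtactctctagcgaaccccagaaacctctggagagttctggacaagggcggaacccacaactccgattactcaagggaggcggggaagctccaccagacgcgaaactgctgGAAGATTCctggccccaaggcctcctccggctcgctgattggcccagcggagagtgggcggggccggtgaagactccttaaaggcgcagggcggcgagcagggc
Dnaja4: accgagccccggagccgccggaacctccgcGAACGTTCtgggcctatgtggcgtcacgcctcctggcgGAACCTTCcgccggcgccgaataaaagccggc
Hsph1: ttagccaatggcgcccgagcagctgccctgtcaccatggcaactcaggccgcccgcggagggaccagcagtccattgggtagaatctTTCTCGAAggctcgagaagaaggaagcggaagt

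The longer element of 3 units adds NNGAA after GAANNTTC or, read on the other strand, NNTTC after TTCNNGAA, and so contains the shorter one. The 3-unit form was found in the windows of 4 genes, Hspd1, Hspe1, Dnajb6 and Hsph1. Hspd1 and Hspe1 lie head to head and share theirs, shown along Hspd1 (chr1:55088033-55088112 on the minus strand), where 2 matches overlap in capitals. The stretch lies inside Hspd1, which reaches 55088243, and precedes an internal start site of that gene.
Hspd1: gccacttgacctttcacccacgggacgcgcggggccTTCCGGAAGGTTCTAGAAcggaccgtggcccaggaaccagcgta

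Elements of 2 units were found for 26.2% of the genes with a window (16 of 61), against 17.0% of the 27025 genes in the promoter table. Elements of 3 units were found for 6.56% (4 of 61) against 0.662%. The ER stress element, CCAAT and CCACG with 9 free bases between them, was searched on both strands. It was found for 3 of 61 (4.92%) against 0.137%. Those 3 were Hspa5 (chr2:34771990-34772069 on the plus strand), Hsp90b1 (chr10:86705515-86705674 on the minus strand) and Dnajc3 (chr14:118937802-118937881 on the plus strand), where capitals mark it. Hsp90b1 held 2 matches, 1 on each strand. A match describes the letters only and is not a measured binding site.
Hspa5: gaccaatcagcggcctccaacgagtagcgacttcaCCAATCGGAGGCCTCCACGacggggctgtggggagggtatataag
Hsp90b1: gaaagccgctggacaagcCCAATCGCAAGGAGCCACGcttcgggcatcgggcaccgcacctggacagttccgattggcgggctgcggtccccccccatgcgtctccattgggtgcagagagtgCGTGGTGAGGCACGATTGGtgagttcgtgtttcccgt
Dnajc3: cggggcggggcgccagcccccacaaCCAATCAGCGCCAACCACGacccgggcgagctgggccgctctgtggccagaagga

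Chaperone transcripts were mostly similar in both libraries, with a few members far apart. A gene was called measured if it reached 5 CPM and 30 reads in at least 1 library, which 60 of the 78 members did. To be called higher or lower, its whole 95% interval had to lie beyond a 2-fold difference, that is above 1 or below -1 on the log2 scale. Hspa1a and Dnaja4 rose in Spib_KO and Hspa13 fell. These are 2 of 60 members higher (3.33%), where 2.33% of all 10707 measured genes were, and 1 of 60 lower (1.67%), where 2.18% were. The number of calls was thus near the background and is no result about the family. The log2 ratio was within 1.5-fold for 49 of 60 members (81.7%) and for 79.5% of all measured genes.

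The members leaned to lower values in Spib_KO by small amounts. Their median log2 ratio was -0.11, and it was 0.01 over all measured genes. Of 60 members 40 had a log2 ratio below 0 (66.7%), where 48.8% of all measured genes had. By mean level in TPM, the deposited transcript abundance per length, 9 of 10 members at 100 or more were below 0 (all but Dnajc19), against 46.3% of 1399 genes at such levels, with a median of -0.15. Between 20 and 100 TPM, 18 of 29 members were below 0 with a median of -0.05, and under 20 TPM 13 of 21 were, with a median of -0.22. These limits were chosen after the values were seen. Summed over all 78 members the level was 6012 TPM in WT and 5311 TPM in Spib_KO, or 0.601% and 0.531% of each library.

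**Figure D1:**
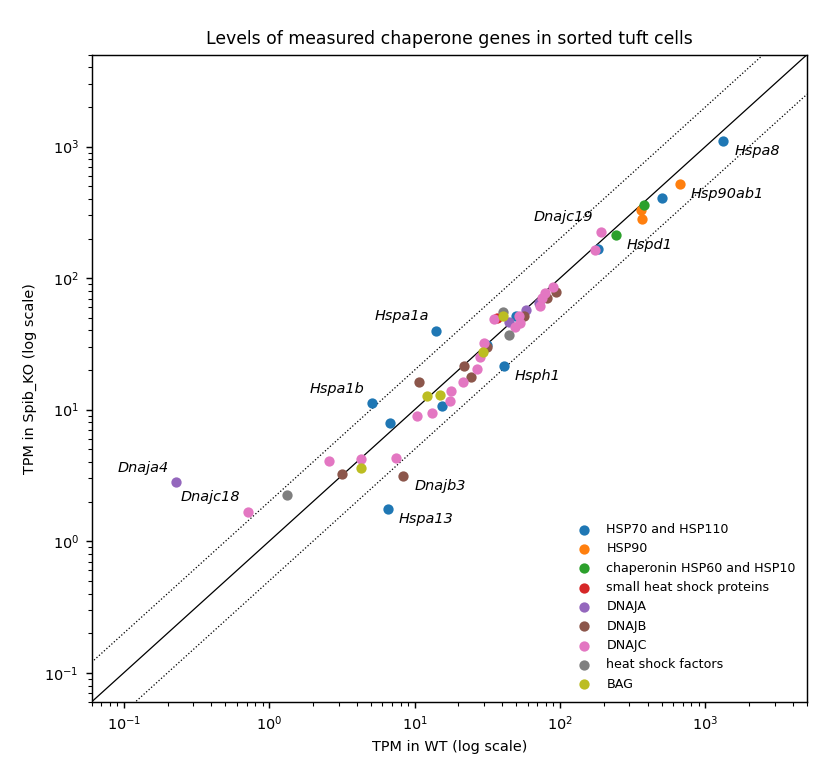
Level of each of the 60 measured members in WT (x axis) and Spib_KO (y axis), in TPM on log axes, coloured by family. The solid line is equality and the dotted lines are 2-fold differences. Hspa1a, Hspa1b, Dnaja4 and Dnajc18 lie above the upper dotted line, and Hspa13 and Dnajb3 below the lower one, while abundant members lie close to equality.

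Among HSP70 genes the constitutive member dominated. Hspa8, which encodes the housekeeping HSP70 of the cytosol, had 1329.7 TPM in WT and 1102 TPM in Spib_KO and ranked 125th and 138th of all genes. Its log2 ratio was -0.25 (-0.27 to -0.23). Hspa5, the ER member known as BiP, had 506 and 409.7 TPM (log2 ratio -0.28, interval -0.32 to -0.25). Hspa9, the mitochondrial member, had 182 and 167 TPM (log2 ratio -0.11, interval -0.16 to -0.06). These 3 intervals exclude 0 but stay far inside a 1.5-fold difference, and they cover counting error only. Hspa14, a ribosome-associated member, and Hspa4, of the HSP110 group, had log2 ratios of 0.08 and -0.01, with intervals that span 0.

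The stress-inducible HSP70 genes went the other way from Hspa8. Hspa1a (gene 193740, chromosome 17, 34969359 to 34972156) is silent or low in most unstressed cells and is strongly induced by heat. It rose 2.82-fold, from 520 reads or 28.9 CPM in WT to 1400 reads or 81.6 CPM in Spib_KO (log2 ratio 1.497, interval 1.35 to 1.65). Hspa1b, its neighbour (gene 15511, chromosome 17, 34956429 to 34959238), had 10.4 and 23.3 CPM (log2 ratio 1.16, interval 0.91 to 1.42), which fell just short of the rule. Hspa1l, a testis-enriched member next to them, had 3 and 41 reads (log2 ratio 3.63, interval 2.19 to 6.18), and was too low to count as measured. The TPM of Hspa8 was 94.0 times that of Hspa1a in WT and 27.9 times in Spib_KO.

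The values of these 3 genes cannot be taken apart. The open reading frames of Hspa1a and Hspa1b were 99.6% identical (7 differences over 1926 bases), and those of Hspa1a and Hspa1l 85.0%. Their deposited reads were not whole numbers, with 519.72 and 187.22 reads in WT for Hspa1a and Hspa1b. Summed with Hspa1l they came to exactly 710 reads in WT and 1840 in Spib_KO, as they would if the authors' counting had divided shared reads among the 3. The sum avoids that division and reached 39.5 CPM in WT against 107 in Spib_KO, 2.72-fold higher, with a log2 ratio of 1.44 (1.32 to 1.57).

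Genes of the HSP110 group and the less usual HSP70 relatives differed among themselves. Hsph1 encodes HSP105, a heat-inducible exchange factor that serves Hspa8 and Hspa1a. Its level was 107 CPM in WT against 56.6 in Spib_KO (log2 ratio -0.92, interval -1.03 to -0.81), the opposite sign to Hspa1a. It did not pass the rule and was singled out after its values were seen. The TPM of Hspa4 was 0.76 times that of Hsph1 in WT and 1.43 times in Spib_KO, so their order was reversed. Hspa4l, the third member of the group, had 59.1 and 48.7 CPM (log2 ratio -0.28, interval -0.41 to -0.15).

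Hspa13 encodes STCH, an HSP70 relative of the ER that lacks the usual substrate-binding part. This gene (110920, chromosome 16, 75755190 to 75767276) fell 4.01-fold, from 353 reads or 19.6 CPM to 84 reads or 4.89 CPM (log2 ratio -2.00, interval -2.36 to -1.66). It was the member furthest below among those measured. Hspa12a, a distant HSP70 relative, had 20 reads in Spib_KO against 0 in WT, at least 6.99-fold higher against a floor of 3 reads in WT, with a counting interval that starts at 2.37 on the log2 scale. It overlaps Eno4, which had 26 and 4 reads, and the method does not keep strand, so their reads cannot be told apart. Hspa2, a testis-enriched member, had 12.6 and 14.9 CPM, with an interval that spans 0.

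The 3 HSP90 genes were below 0 together, each by less than 1.5-fold. Hsp90ab1, the constitutive cytosolic form, had 664 TPM in WT and 519 TPM in Spib_KO (log2 ratio -0.34, interval -0.36 to -0.31). Hsp90aa1, the heat-inducible cytosolic form, had 363 and 328 TPM (log2 ratio -0.13, interval -0.16 to -0.09). Hsp90b1, the ER form known as GRP94, had 369 and 283 TPM (log2 ratio -0.37, interval -0.40 to -0.33). The TPM of Hsp90ab1 was 1.83 times that of Hsp90aa1 in WT and 1.58 times in Spib_KO. The mitochondrial chaperonin was closer still. Hspd1, which encodes HSP60, had 243 and 213 TPM (log2 ratio -0.17, -0.22 to -0.12), and Hspe1, which encodes its lid HSP10, had 378 and 358 TPM (log2 ratio -0.02, -0.10 to 0.05).

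Small heat shock proteins, which hold unfolded protein without using ATP, were scarce in both libraries. Of 5 in the table only Hspb11 was measured, at 17.7 and 21.2 CPM (log2 ratio 0.26, interval 0.04 to 0.48). Its product, also called IFT25, belongs to the machinery of cilia. Hspb1, the classic heat-inducible member, had 55 reads in WT and 54 in Spib_KO. Hspb6 had 70 and 38 reads, and Hspb2 and Hspb8 had at most 3 reads in either library.

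DnaJ proteins of type A, built like bacterial DnaJ, were steady except for 1. Dnaja1, Dnaja2 and Dnaja3, the last of which works in mitochondria, had log2 ratios of -0.14, 0.08 and -0.01, at levels of 44.3 to 72.2 TPM in WT. Dnaja4 (gene 58233, chromosome 9, 54698848 to 54716317) is a heat-inducible cytosolic member. It had 9 reads in WT and 106 in Spib_KO, or 0.50 and 6.18 CPM, a 12.4-fold rise with a log2 ratio of 3.55 (2.65 to 4.79). Its level stayed low, at 0.23 and 2.80 TPM, well under its 3 relatives. It was the member furthest above among those measured.

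Type B DnaJ proteins include the main stress-responsive and ER partners of HSP70. Of 12 genes 9 were measured, 0 were called (2.33% higher and 2.18% lower among all measured genes) and 7 had a log2 ratio below 0 (77.8%, against 48.8%), with a median of -0.18. Dnajb1, the partner of HSP70 that heat induces together with it, was the most abundant, with 94.1 TPM in WT and 77.8 TPM in Spib_KO. Its log2 ratio was -0.25 (-0.32 to -0.18), close to that of Hspa8 and of the opposite sign to Hspa1a. Dnajb11, the ER partner of BiP, had 80.9 and 70.2 TPM (log2 ratio -0.18, -0.28 to -0.09). Dnajb6, known for holding back protein aggregation, had 56.8 and 51.7 TPM (log2 ratio -0.08, -0.20 to 0.03).

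Of the other ER members of this type, Dnajb9, an early target of the unfolded protein response, had 31.6 and 29.9 TPM (log2 ratio -0.05, -0.20 to 0.10), and the membrane protein gene Dnajb12 had 24.5 and 17.7 TPM (log2 ratio -0.27, -0.43 to -0.11). Dnajb2, of neurons and muscle, and the heat-inducible Dnajb4 had log2 ratios of 0.07 and -0.22 with intervals that span 0. Further out, Dnajb14, an ER membrane protein, had 68.0 and 107 CPM (log2 ratio 0.66, interval 0.55 to 0.76). Dnajb3 had 95 and 35 reads (log2 ratio -1.36, interval -1.97 to -0.80) that did not pass the rule. It lies wholly within the Ugt1a genes. Of these, Ugt1a7c had 4424 and 4093 reads and Ugt1a6b 67 and 14, and without strand their reads cannot be told apart from those of Dnajb3. Dnajb5, a member chosen after its values were seen, had 0 reads in Spib_KO against 32 in WT, at least 10.2-fold lower against a floor of 3 reads in Spib_KO, with a counting interval that lies below -2.96 on the log2 scale. At 1.78 CPM it was below the limit for a measured gene.

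**Figure D2:**
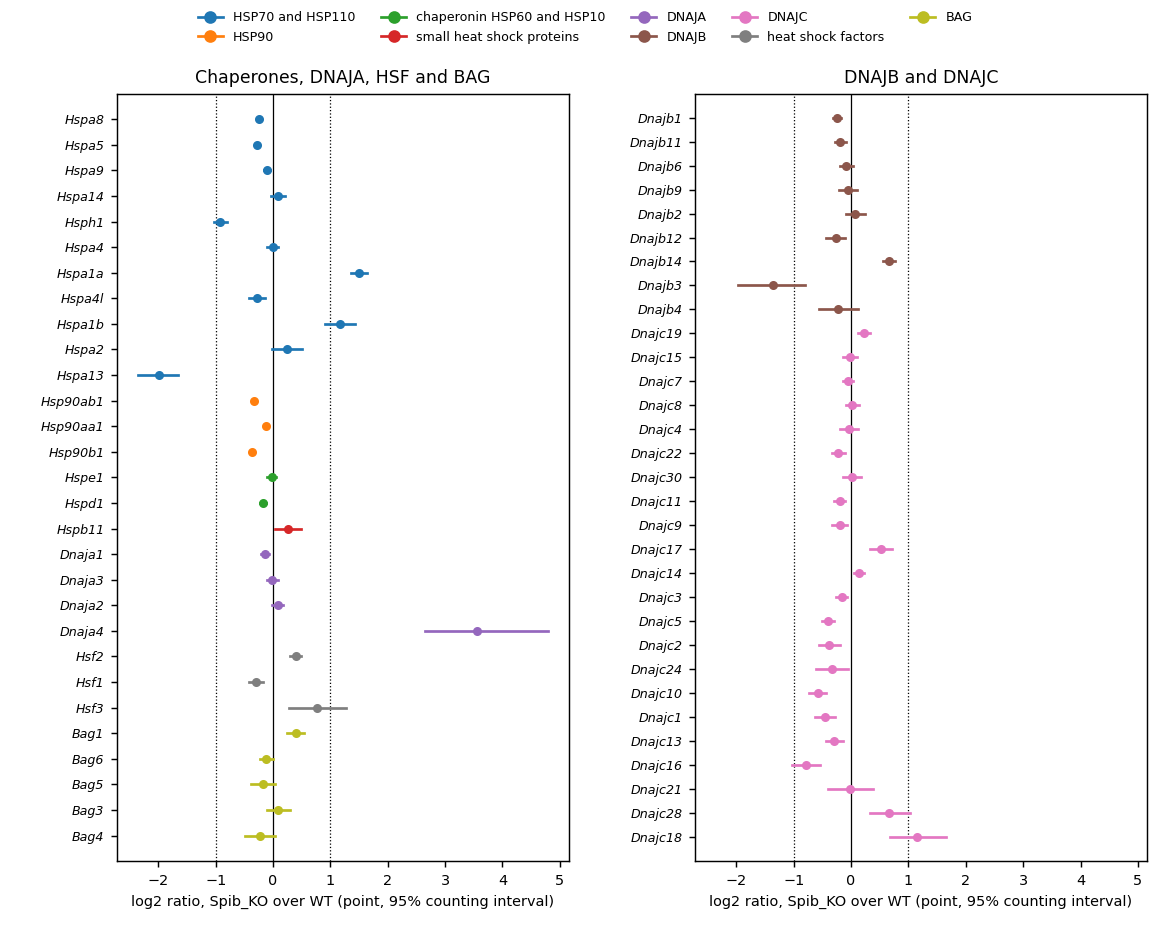
Log2 ratio of Spib_KO over WT for the 60 measured members, with families by colour and the most abundant member of each family at its top. Points are ratios and bars are 95% counting intervals, the solid line is 0 and dotted lines are 2-fold differences. Hspa1a and Dnaja4 lie with their whole intervals above 1 and Hspa13 below -1.

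Type C DnaJ proteins share only the J domain and work at many sites. Of 26 genes 22 were measured, 0 were called and 15 were below 0 (68.2%), with a median log2 ratio of -0.11. Of all measured genes 2.33% were called higher, 2.18% lower, and 48.8% were below 0. Dnajc19 and Dnajc15, which act at the inner mitochondrial membrane with the protein import motor, were the most abundant, at 191 and 175 TPM in WT. Their log2 ratios were 0.23 (0.12 to 0.33) and -0.02 (-0.15 to 0.11). Dnajc19 overlaps Fxr1, at 543 and 408 reads. Dnajc7, a cytosolic protein that links HSP70 and HSP90, had 90.1 and 86.0 TPM. It overlaps Cnp, at 717 and 533 reads, and Nkiras2, at 1367 and 1544 reads. Dnajc8, found with the spliceosome, had 78.3 and 77.6 TPM. Dnajc5, which encodes the cysteine string protein of secretory vesicles, had 26.9 and 20.2 TPM (log2 ratio -0.40, interval -0.51 to -0.29).

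Several type C members with other tasks lay between -0.38 and 0.01. Dnajc9, a histone chaperone, had 49.3 and 42.2 TPM, and Dnajc2, which sits on the ribosome, 21.4 and 16.2 TPM (log2 ratios -0.20 and -0.38). Dnajc11 of mitochondria and the membrane protein gene Dnajc22 had log2 ratios of -0.20 and -0.22, and Dnajc13, which sorts endosomes, had -0.30. Dnajc24, an enzyme partner of diphthamide synthesis, had -0.32. Dnajc4, Dnajc21 and Dnajc30 had -0.04, -0.01 and 0.01, with intervals that span 0. Dnajc30 overlaps Bud23, at 1477 and 1373 reads. Above 0 were Dnajc14, at 0.14 (0.04 to 0.23), and Dnajc17, at 0.51 (0.33 to 0.71). Dnajc14 overlaps Ormdl2, at 1362 and 1711 reads. Dnajc17, a splicing-related member, overlaps Zfyve19, which had 1299 and 819 reads.

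The type C members furthest from 0 lay on both sides of it, and besides Dnajc17 above and Dnajc28, a mitochondrial member with a log2 ratio of 0.67, they were Dnajc18, Dnajc16, Dnajc10 and Dnajc1. Dnajc18 had 55 and 117 reads (log2 ratio 1.15, interval 0.68 to 1.65). Dnajc16 had 392 and 216 reads (log2 ratio -0.79, interval -1.04 to -0.55). Dnajc10, an ER reductase that helps to clear misfolded protein, had 53.1 and 35.5 CPM (log2 ratio -0.58, interval -0.73 to -0.43). Dnajc1, an ER membrane partner of BiP, had 36.1 and 26.2 CPM (log2 ratio -0.46, interval -0.64 to -0.28). At a looser bound of 1.5-fold, 4 members were higher (Hspa1a, Hspa1b, Dnaja4 and Dnajc18) and 3 lower (Hspa13, Dnajb3 and Hsph1). Of all measured genes 5.59% were higher and 5.51% lower at that bound.

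The heat shock factors that control these genes were not called, where 2.33% of all measured genes were called higher and 2.18% lower. Hsf1, the main activator of the heat shock response, had 44.7 TPM in WT and 37.2 TPM in Spib_KO (log2 ratio -0.30, interval -0.42 to -0.18). Hsf2, a relative active in development that can pair with HSF1, had 40.2 and 55.5 TPM (log2 ratio 0.40, interval 0.30 to 0.49). The order of the 2 genes by TPM was thus reversed between the libraries. Hsf3 had 58 and 94 reads (log2 ratio 0.76, interval 0.28 to 1.26), and overlaps Heph, which had 3234 and 4129 reads. Hsf4 and Hsf5 had at most 24 reads in a library. Hsf2bp, which the symbol rule takes in although it encodes an HSF2-binding protein and not a factor, had 2 reads in WT and 0 in Spib_KO.

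BAG proteins release substrate from HSP70. Of 6 genes 5 were measured and 0 were called, where 2.33% of all measured genes were called higher and 2.18% lower. Their median log2 ratio was -0.11. Bag1, a survival factor that couples HSP70 to the proteasome, had 40.4 and 52.0 TPM (log2 ratio 0.39, interval 0.24 to 0.54). Bag6, which guards tail-anchored proteins, had 29.7 and 27.3 TPM, and Bag5 15.0 and 13.0 TPM. Bag4, which silences death receptors, had 15.5 and 13.3 CPM, with an interval that spans 0. Bag3, a target of HSF1 that steers clients to autophagy, had 22.8 and 24.3 CPM (log2 ratio 0.09, interval -0.11 to 0.29). Bag2 had 88 and 49 reads and did not count as measured.

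Genes known to be induced by heat were split. The list held 16 members, of which 14 were measured, 2 rose (Hspa1a and Dnaja4) and 0 fell, against 2.33% higher and 2.18% lower among all measured genes. The log2 ratio was below 0 for 10 of the 14 (71.4%, against 48.8%), and the median was -0.16. The list also holds Hspa8 and Hsp90ab1, named above as housekeeping and constitutive, with log2 ratios of -0.25 and -0.34. Hspa1a, Hspa1b and Dnaja4 stood above, Hsph1 below, and the other 10 lay between -0.34 and 0.09. A 2-unit element lay before a start site of Hspa1a, Hspa1b, Dnaja4 and Hsph1, an internal one for both Dnaja4 and Hsph1. Other members of the list held one before a start site too. They were Dnaja1, Dnajb4, Hspd1 and Hspe1, with log2 ratios of -0.14, -0.22, -0.17 and -0.02. So did Hspb1, not measured, with 55 and 54 reads. Of these, letters are shown for Hspd1 alone. For Bag3 and Hspb8 the match lay after the start site. The 3-unit form was found for Hsph1, after the start site, and for Hspd1 and Hspe1. That form was not found for Hspa1a, Hspa1b or Dnaja4. Whether these letters bear on the values was not tested.

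**Figure D3:**
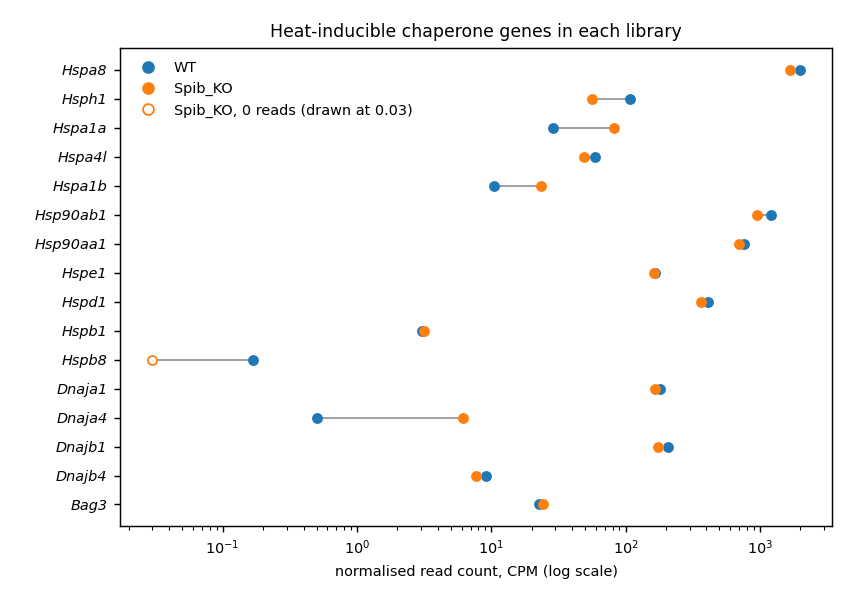
Normalised read count (CPM, log axis) of the 16 heat-inducible members in WT (blue) and Spib_KO (orange), 1 library each, joined by a line. The open point is a gene with 0 reads. Hspa1a, Hspa1b and Dnaja4 are higher in Spib_KO, Hsph1 is lower, and most others nearly coincide.

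Dissociation of tissue before a sort can itself induce stress genes, so other stress response genes are given beside these. Of 26 in the list 24 were measured, 1 fell and 0 rose, where 2.18% and 2.33% of all measured genes did, with a median log2 ratio of -0.09. The gene that fell was Ier3, an early response gene, from 10.9 to 3.09 CPM with a log2 ratio of -1.81 (-2.28 to -1.37). The early response genes Fos, Egr1 and Jun had 1263, 726 and 466 CPM in WT and 1214, 674 and 381 CPM in Spib_KO. Atf3, a stress-induced transcription factor, had 202 and 127 CPM. Ubb, a polyubiquitin gene that heat also induces, had 3410 and 4743 CPM, a log2 ratio of 0.48. Furthest above 0 without passing the rule were Ddit3 (log2 ratio 0.81), Mt1, a metallothionein gene, at 405 and 691 CPM (log2 ratio 0.77), and Gadd45a, a growth arrest gene, at 28.7 and 45.1 CPM (log2 ratio 0.65). After Ier3, those furthest below 0 were Mt2, also a metallothionein gene, at 6.17 and 3.03 CPM (log2 ratio -1.02, interval -1.53 to -0.54), and Hmox1 (log2 ratio -0.71). In all, 9 of the 24 were above 0 and 15 below. Handling, time of sorting and genotype cannot be told apart with 1 library each.

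The listed ER chaperones had mostly small log2 ratios below 0. Of the 11 members in the ER list 10 were measured, and 9 of these had a log2 ratio below 0 (90.0%), where 48.8% of all measured genes had. Their median was -0.28. Within the list Hspa13 was the only one called (2.33% higher and 2.18% lower among all measured genes), and Dnajb14 the only one above 0. The list may not hold every member of the ER. Dnajc14, Dnajc16 and Dnajc18, with log2 ratios of 0.14, -0.79 and 1.15, were not in it. The 3 genes whose promoters hold the ER stress element, Hspa5, Hsp90b1 and Dnajc3, had log2 ratios of -0.28, -0.37 and -0.16. Summed over the list the level was 1091 TPM in WT and 875 TPM in Spib_KO. Xbp1, a transcription factor of the unfolded protein response, had 258 and 198 CPM, a log2 ratio of -0.38. Ddit3, which encodes CHOP, a factor of the same response, lay on the other side, at 37.6 and 66.0 CPM (log2 ratio 0.81, interval 0.67 to 0.95).

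Most markers of 2 secretory cell types with much ER were lower as well. Of 7 Paneth cell markers 6 were lower and 0 higher by the rule, and of 6 goblet cell markers 3 were lower and 0 higher. Among all measured genes 2.18% were lower and 2.33% higher. None of these markers was at 0 reads in either library. Each list held 1 gene with a log2 ratio above 0 that did not pass the rule, Ang4 of Paneth cells at 0.75 (0.63 to 0.87) and Clca1 of goblet cells at 0.68 (0.63 to 0.74). The part of these cells in the lower ER chaperones was not tested. Lower markers were not limited to these cells. Of 7 measured enteroendocrine markers 5 were lower and 1 higher, and all 4 measured T cell markers were lower. No marker of the 15 for tuft cells or the 7 for enterocytes passed the rule. In bulk libraries, fewer cells of a type and less RNA per cell cannot be told apart. Hspa5 also overlaps Rabepk, which had 423 and 243 reads.

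Mitochondrial members stayed close to 0. All 10 in the list were measured and none was called, where 2.33% of all measured genes were called higher and 2.18% lower. The log2 ratio was below 0 for 7 of the 10 (70%, against 48.8% of all measured genes), and their median was -0.02. Dnajc28, at 116 and 176 reads, was furthest from 0, with a log2 ratio of 0.67 (0.32 to 1.02).

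The partner genes of the chaperones had 0 calls outside the stress list, where 2.33% of all measured genes were called higher and 2.18% lower. Of 17 measured co-chaperones of HSP90 the most abundant by TPM were Fkbp4, an immunophilin of steroid receptor complexes, at 543 and 498 CPM, and Nudc, at 135 and 120 CPM. The median log2 ratio of the 17 was -0.01. Rpap3, which brings HSP90 to assembling complexes, stood apart at 6.72 and 15.2 CPM (log2 ratio 1.17, interval 0.86 to 1.501), without passing the rule. Of 15 measured genes in the list of HSP70 co-chaperones and related chaperones, 11 were below 0 and the median was -0.15. Stub1, the ubiquitin ligase CHIP, had 280.4 and 277 CPM, and Trap1, the mitochondrial HSP90, had 240.5 and 205 CPM. Grpel2, a mitochondrial exchange factor, was furthest above, with a log2 ratio of 0.77 (0.62 to 0.93).

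The 14 genes of the cytosolic chaperonin TRiC and of prefoldin, which folds actin and tubulin with it, all lay within 1.5-fold. Their median log2 ratio was -0.03 and their values ran from -0.20 to 0.31. Pfdn5 and Pfdn6, the most abundant prefoldin genes by TPM, had log2 ratios of 0.07 and 0.12.

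**Figure D4:**
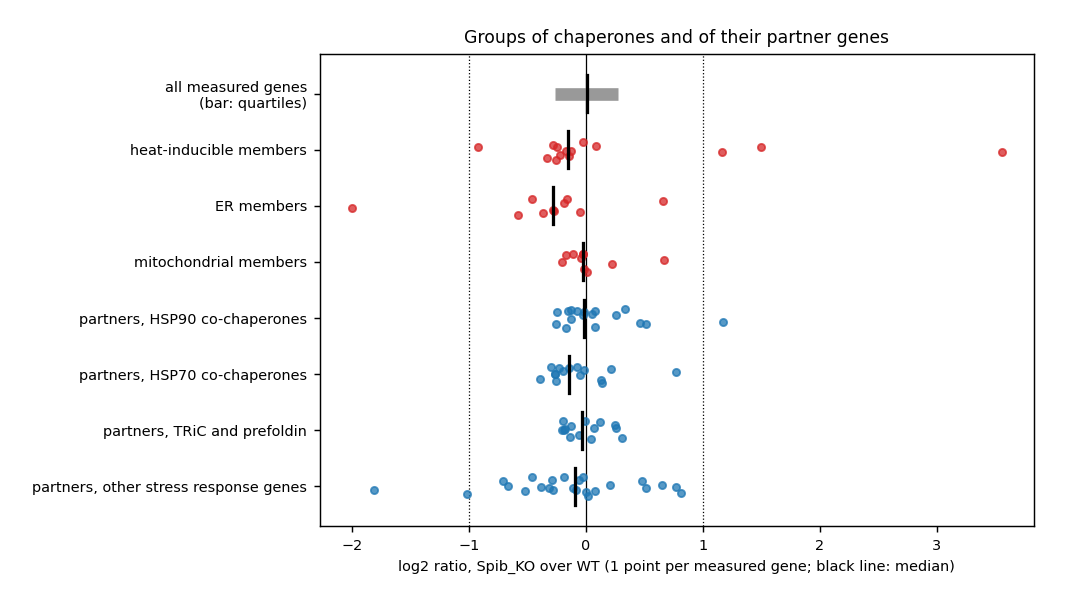
Log2 ratio of Spib_KO over WT for the measured genes of 3 groups of members (red) and 4 groups of partner genes (blue), with 1 point per gene and a black line at the median. The grey bar spans the quartiles of all measured genes. The ER members sit lowest, with a median of -0.28, and the TRiC and prefoldin genes are the most tightly packed.

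The 18 members that were not measured had at most 88 reads in a library. Besides Hspa1l, Hspa12a and Dnajb5 they included Dnajb7 and Dnajb13, both testis-enriched, and Dnajc5b, with at most 15 reads each. Dnajc25, of the ER membrane, had 73 and 35 reads (log2 ratio -0.98, interval -1.62 to -0.39). For Hspa12b, Hspb1, Dnajb13, Dnajc12 and Dnajc27, with at most 55 reads in a library, the intervals spanned 0 and no difference was detectable at this depth.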

How the data were processed

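RNA-seq of sorted tuft cells gave 1 WT and 1 Spib_KO library. TRIzol extraction, Smart-seq2 type cDNA amplification and transposase libraries were used, per the labels' protocols, which name no molecular identifiers. HISAT, Bowtie2 2.2.3 and the build mm10 are listed per the submitters' processing notes. The program that counted reads and its gene models are not named in the sources used.

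For each gene and library the table holds a read count, a TPM and an FPKM, all made by the authors, per the file headers. Because 19.0% of WT and 18.6% of Spib_KO read counts (13 members) are not whole, the deposited values are taken to be expected counts and were rounded. The deposited TPM gave levels, and the deposited FPKM served only as an alternative.

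Scaling used TMM factors of all genes from edgeR 4.0.16 in R 4.3.3. Log2 ratios used a prior count of 0.5, and intervals were exact conditional binomial (Clopper-Pearson) intervals at 95%. Intervals and the floor of 3 counts cover counting error only, since amplified reads are not independent molecules. The size rule stands in place of a test. The rule was tried on simulated data for the comparison of Spib_KO with WT over 17134 genes. It called 0 of 50 genes changed 1.5-fold, 44 of 50 changed 2.5-fold, 50 of 50 changed 4-fold and 0 of 10263 unchanged. The simulated counts held counting error only, without variation between mice, sorts or amplifications. They therefore give no rate of false calls for real libraries.

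Members and lists were chosen with earlier results of these data known. Named were all called members, in each family the 3 highest by mean TPM and the 3 with the interval bound furthest from 0, members with at most 3 reads in 1 library and 5 CPM or more in the other, and, in each partner list, called genes or otherwise the 2 most abundant by TPM. Others (among them Hsph1, Hspa1l, Hspa12a, Dnajb5, Dnajc5, Bag3, Rpap3, Grpel2, Xbp1, Ddit3, Fabp1, Ang4, Clca1 and the other stress genes) were chosen after their values were seen. Coordinates come from a RefSeq table of GRCm38.p6, which matched all 78 members. Open reading frames are the longest in GENCODE M21 transcripts. Python 3.11.15, numpy 2.4.6, scipy 1.17.1, pandas 2.3.3 and matplotlib 3.10.9 were used. Other scalings, filters, bounds, prior counts and units were tried as alternatives.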

Additional observations from a re-analysis of the deposited data

How the results depend on the processing

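No paired analysis was possible because each genotype has 1 library and the labels carry no replicate numbers; for the same reason no replicate could be left out. DESeq2 size factors (DESeq2 1.42.0), total counts and the upper quartile all left 2 members higher and 1 lower. So did 2 alternatives chosen after seeing the data, scaling on the tuft marker list and summing Hspa1a, Hspa1b and Hspa1l. A prior count of 5 changes the log2 ratio but not the interval or the filter, so its calls could not differ. The median log2 ratio of the measured members ran from -0.15 to -0.06 over its alternatives. Counts of members moved where the rule itself changed. Dropping the filter on low counts gave 4 higher and 2 lower of 78 members, beside 595 and 716 of all 17120 genes. At a minimum of 20 CPM they were 1 and 0 of 49, beside 101 and 106 of 7695 genes. By the point estimate they were 4 and 2 of 60, beside 425 and 419 of 10707 genes. At a 4-fold bound they were 1 and 0 (all genes 65 and 88), and at a 1.5-fold bound 4 and 3 (598 and 590). Deposited TPM gave 2 higher and 2 lower of 54 with either pseudocount (1 or 0.1). All 9106 genes gave 203 and 256 with the first and 254 and 317 with the second. FPKM gave 1 and 2 of 53, beside 165 and 226 of 8541 genes. TPM and FPKM carry no counting interval, so their rule is a point estimate among genes at 5 or more. Hspa1a was called under each of these except the 4-fold bound. Dnaja4 was not called with TPM or FPKM, where its level is under 5, or with the CPM minimum of 20, and Hspa13 was not called with the CPM minimum of 20 or the 4-fold bound. No called gene changed sign. Of 208 list medians under alternatives 9 changed sign. This total includes the point estimate and the 4-fold and 1.5-fold bounds, which change calls only, so their medians could not differ. HSP70 and HSP110 came to 0.04 and small heat shock proteins to -0.80 without the filter, DNAJA was slightly below 0 in 4 settings, and scaling on tuft markers put mitochondrial members at 0.03, HSP90 co-chaperones at 0.04 and TRiC and prefoldin at 0.02. Depth limits the least abundant members, such as Dnaja4, whose fold rests on 9 reads in WT.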
